A study of Homo sapiens with 5 samples.

Results

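The sites described here are places where the histone demethylase LSD1 was called bound in both prostate cancer cell lines of the study, LNCaP and VCaP, and where no peak of phosphorylated histone H3 threonine 6 (H3T6ph) was called in LNCaP. They are the LNCaP LSD1 peaks on chromosomes 1 to 22 and X that share at least 1 base with a VCaP LSD1 peak and none with an LNCaP H3T6ph peak. They were thus selected on the peak calls themselves, so the overlaps are a description and carry no test. The rule left 877 sites of 11673 LNCaP LSD1 peaks. The series, whose design text asks what LSD1 does in androgen signalling, held 5 groups of 1 sample each. The 3 chromatin immunoprecipitation (ChIP-seq) groups were LSD1 in LNCaP, LSD1 in VCaP and H3T6ph in LNCaP, all from untransfected cells. The 2 RNA-seq groups were LNCaP cells transfected with a control siRNA or with an siRNA against LSD1. All groups were grown for 3 days in hormone-depleted (charcoal-stripped) serum before a hormone stimulus that the labels do not name, so no group shows LSD1 binding with and without hormone. VCaP had neither an H3T6ph list nor RNA, so absence of the mark and the expression values below refer to LNCaP alone.

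LSD1 (gene KDM1A) removes methyl groups from lysine 4 of histone H3 as part of the CoREST and NuRD complexes. It is known both as a corepressor and as a coactivator. Phosphorylation of the neighbouring threonine 6 by protein kinase C is known to keep LSD1 from demethylating lysine 4. LNCaP and VCaP both respond to androgen, and VCaP carries the TMPRSS2-ERG fusion.

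In the control siRNA library the luminal markers KRT8, KRT18, KLK3, FOLH1 and HOXB13 were all measured, from 77.5 FPKM (fragments scaled by transcript length and library size) for HOXB13 to 2474 for KLK3. KDM1A itself was at 37.0 FPKM with control siRNA and 6.87 with LSD1 siRNA, 18.6% of control. Read totals are not in the RNA table, but the commonest step between low values placed the LSD1 siRNA library at 77.3% of the depth of the control. How deeply the ChIP samples were sequenced is unknown, and peak lists do not allow a check of cell markers. Each group is a single sample, so values carry no replicate error, differences were not tested, and labels do not say how many cultures a sample pooled. In bulk RNA, fewer expressing cells and less RNA per cell cannot be told apart. Intervals on shares are 95% Wilson intervals and cover counting error only.

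Because the sites turned out to lie at gene starts more often than other LNCaP LSD1 peaks, 6 promoters are shown before the values. They belong to genes at 1 FPKM or more in either RNA library, and are the first 6 of these, in order of the LNCaP score of the site at their end, that met 3 conditions. The site lay at the start, the gene shared its interval with no other, and its span matched the RefSeq span within 5%. The sequences are from RefSeq on GRCh38.p14, from 250 bases before to 50 bases after the outermost start, 5′ to 3′ on the gene's strand. Peak coordinates elsewhere are hg19 and cannot be set against these. Capitals mark 4 motifs in either orientation: GGGCGG, the core bound by SP and KLF factors, CCGGAAG, an ETS-type site, TGCGCA, the core of the NRF1 site, and ATGGCGG, a YY1-type site.
EARS2 (chr16:23557326-23557625, minus strand): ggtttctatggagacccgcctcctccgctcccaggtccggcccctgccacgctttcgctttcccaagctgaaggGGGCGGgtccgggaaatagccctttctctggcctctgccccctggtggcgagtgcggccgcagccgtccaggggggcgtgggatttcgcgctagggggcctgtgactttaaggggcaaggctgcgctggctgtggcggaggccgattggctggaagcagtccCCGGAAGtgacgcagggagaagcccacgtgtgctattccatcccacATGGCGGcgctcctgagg
CENPF (chr1:214602945-214603244, plus strand): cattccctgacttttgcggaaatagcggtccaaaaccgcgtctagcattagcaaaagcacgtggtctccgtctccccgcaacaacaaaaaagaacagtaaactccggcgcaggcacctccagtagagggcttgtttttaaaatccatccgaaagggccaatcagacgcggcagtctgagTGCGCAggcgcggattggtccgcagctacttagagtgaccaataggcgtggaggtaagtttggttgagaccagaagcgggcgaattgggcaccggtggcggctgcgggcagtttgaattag
ZNF335 (chr20:45972154-45972453, minus strand): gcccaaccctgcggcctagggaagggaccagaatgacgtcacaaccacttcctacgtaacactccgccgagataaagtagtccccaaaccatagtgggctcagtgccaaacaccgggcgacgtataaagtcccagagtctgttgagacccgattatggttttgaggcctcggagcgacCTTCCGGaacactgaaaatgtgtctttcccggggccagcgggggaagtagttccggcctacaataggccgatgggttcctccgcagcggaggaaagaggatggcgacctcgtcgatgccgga
PSMD9 (chr12:121888540-121888839, plus strand): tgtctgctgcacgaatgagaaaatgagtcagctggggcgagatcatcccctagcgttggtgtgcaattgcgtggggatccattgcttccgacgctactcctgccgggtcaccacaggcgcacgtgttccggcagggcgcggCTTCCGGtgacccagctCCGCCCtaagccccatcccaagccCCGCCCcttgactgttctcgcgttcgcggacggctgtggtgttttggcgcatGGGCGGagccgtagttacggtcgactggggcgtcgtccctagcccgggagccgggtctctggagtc
UBE2O (chr17:76453103-76453402, minus strand): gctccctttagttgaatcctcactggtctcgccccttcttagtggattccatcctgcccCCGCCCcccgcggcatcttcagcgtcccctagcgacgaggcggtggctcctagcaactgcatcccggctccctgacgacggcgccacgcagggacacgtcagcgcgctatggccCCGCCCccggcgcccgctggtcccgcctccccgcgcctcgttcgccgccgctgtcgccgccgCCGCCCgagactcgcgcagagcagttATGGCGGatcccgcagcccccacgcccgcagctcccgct
SYT11 (chr1:155859317-155859616, plus strand): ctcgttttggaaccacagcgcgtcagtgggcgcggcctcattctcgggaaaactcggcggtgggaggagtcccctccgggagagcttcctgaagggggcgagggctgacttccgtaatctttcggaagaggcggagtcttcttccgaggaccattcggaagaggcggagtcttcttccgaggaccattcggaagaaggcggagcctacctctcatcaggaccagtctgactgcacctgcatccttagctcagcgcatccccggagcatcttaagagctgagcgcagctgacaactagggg

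The CpG ratio of the 6 windows (observed CpG over that expected from base content) ran from 0.66 to 1.08. EARS2 encodes the mitochondrial glutamyl-tRNA synthetase, and its window holds 22 CpG and 1 match each of GGGCGG, the ETS-type and the YY1-type site. CENPF, a kinetochore protein gene, has 22 CpG and 1 TGCGCA match. ZNF335, a zinc finger gene, also has 22, with 1 ETS-type match. PSMD9, a proteasome assembly chaperone gene, has 29 CpG with 3 GGGCGG and 1 ETS-type match. UBE2O encodes a ubiquitin-conjugating enzyme, and its window has 39 CpG, 3 GGGCGG matches and 1 YY1-type match. SYT11, a synaptotagmin gene, has 22 CpG and none of the 4 motifs in this window. The LNCaP peak at CENPF ran from 553 bases before to 381 bases after the outer end of its hg19 interval. At ZNF335 it ran from 51 bases before to 1025 bases after that end. With that end taken as the start, the peak covered 101 of the 300 bases of the ZNF335 window and 182 of those of EARS2. It covered all 300 at CENPF, PSMD9, UBE2O and SYT11. Marked matches in the ZNF335 and EARS2 windows may thus lie outside the peak.

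The sites lay near gene ends more often than LNCaP LSD1 peaks found in neither other list. A peak counted as at a gene end when it lay within 1 kb of either end of a gene interval of the RNA table. Of the 877 sites 241 did so, which is 27.5% (24.6 to 30.5%). Of the 10107 LNCaP LSD1 peaks that met neither VCaP LSD1 nor H3T6ph, 827 did, or 8.18% (7.66 to 8.73%). Sites present in all 3 lists resembled the second group, with 28 of 333 at a gene end, or 8.41% (5.88 to 11.9%). VCaP LSD1 peaks found in neither LNCaP list stood between, at 17.6% (16.8 to 18.5%) of 7813. The intervals of the 877 sites and of each of these sets do not overlap. Of the remaining sites 317 (36.1%, 33.0 to 39.4%) lay inside a gene interval and 319 (36.4%, 33.3 to 39.6%) lay between genes. Among sites of all 3 lists 55.6% (50.2 to 60.8%) lay between genes.

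**Figure D1:**
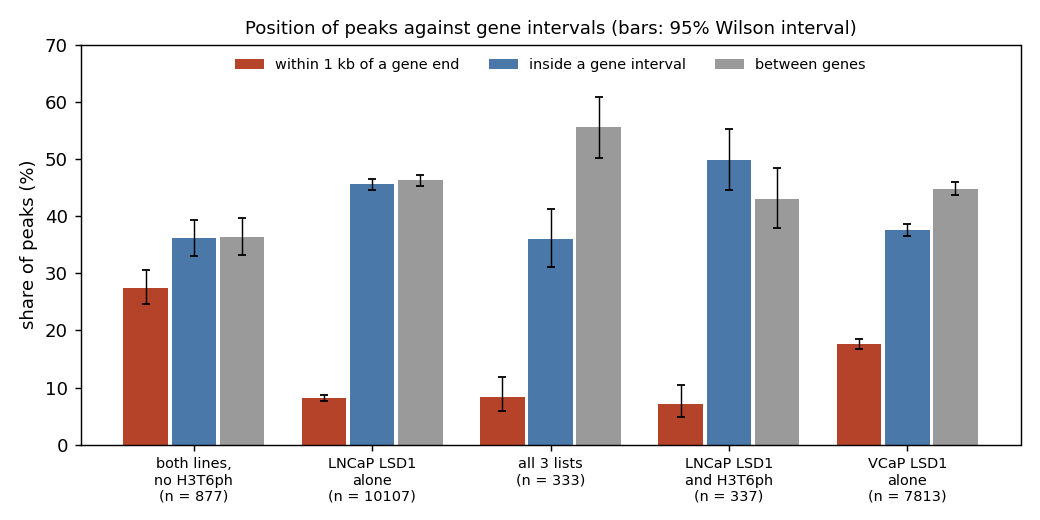
Share of peaks (%) within 1 kb of a gene end, inside a gene interval or between genes, in 5 sets of peaks, with 95% Wilson intervals as error bars. The first red bar, for the sites of both lines without H3T6ph, stands at 27.5%, above the other 4 red bars at 7.12 to 17.6%.

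Seen from the position, the same counts show where the VCaP list and the H3T6ph list met LNCaP LSD1. At gene ends 269 of 1120 LNCaP LSD1 peaks met a VCaP LSD1 peak (24.0%, 21.6 to 26.6%), against 8.39% inside genes and 9.47% between them. Among peaks shared by both lines, H3T6ph overlapped 28 of 269 at gene ends, which is 10.4% (7.30 to 14.6%). Inside genes it overlapped 120 of 437 shared peaks, 27.5% (23.5 to 31.8%), and between genes 185 of 504, 36.7% (32.6 to 41.0%). Over all LNCaP LSD1 peaks, shared or not, the shares lay closer together and their intervals overlap. They were 4.64% (3.56 to 6.04%) at gene ends, 5.53% (4.94 to 6.18%) inside genes and 6.20% (5.58 to 6.88%) between them. H3T6ph peaks as a whole lay at gene ends in 6.95% (6.24 to 7.74%) of cases.

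The share at gene ends was higher than that of LNCaP LSD1 alone in each quartile of the LNCaP score. From the lowest to the highest quartile of the list it was 33.3, 29.2, 28.5 and 22.7% among the 877 sites. Among peaks of LNCaP LSD1 alone it was 10.0, 9.12, 7.77 and 5.47% over the same quartiles, so in both sets it was lowest among the highest-scoring peaks.

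Most of the gene ends that could be named were starts. The RNA table gives no strand, so the strand of each gene was taken from RefSeq, which named an end for 172 of the 241 sites. Starts on chromosome 8 were not used here, so its 43 sites, 6 of them at a gene end, are in no count of starts. Of the 172 sites with a named end, 152 lay at the start, or 88.4% (82.7 to 92.3%), and 20 at the other end. For LNCaP LSD1 alone the share at the start was 77.1% (73.5 to 80.3%) of 585, and for all 3 lists 60% (35.7 to 80.2%) of 15. For all VCaP LSD1 peaks it was 85.7% (83.6 to 87.6%) of 1183, an interval that overlaps that of the sites. Centres of 150 sites lay within 1 kb of a start, 93 of them upstream and 57 downstream, with a median of 64.3 bases upstream. The 500 bases upstream of a start alone held 87 of the 834 sites on chromosomes with named starts (10.4%), against 2.06% of peaks of LNCaP LSD1 alone.

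**Figure D2:**
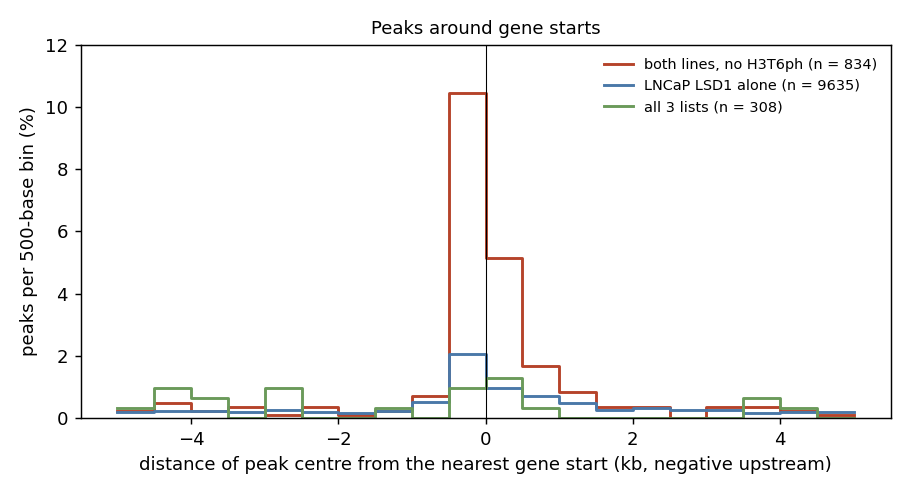
Peaks per 500-base bin (%) by the distance of the peak centre from the nearest gene start (kb, negative upstream), for the sites of both lines without H3T6ph, peaks of LNCaP LSD1 alone and sites of all 3 lists. The red line reaches 10.4% in the bin just upstream of the start, where the blue line is at 2.06%.

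In 14 cases the site lay at the starts of 2 genes that are read in opposite directions, and it could reach past a start into a gene. The highest-scoring lay at the starts of EARS2 and UBFD1 on chromosome 16 (23568004 to 23568828, hg19), with a score of 223 in LNCaP and 85.9 in VCaP. Scores are the authors' own, on a scale the files do not state, and can be ranked only within a list. On chromosome 12 a site at 122325810 to 122326901 (scores 173 and 181) lay at the starts of PSMD9 and HPD. Another on chromosome 10 (31607465 to 31608855, scores 163 and 123) lay at the starts of ZEB1, which encodes a repressor known to recruit CtBP, and its antisense RNA gene ZEB1-AS1. Further pairs were TATDN3 and NSL1, and the histone genes H2AC6 and H2BC4 (26122680 to 26123690 on chromosome 6, scores 89.5 and 140).

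Scores in the 2 lines were weakly related. Across the 877 sites the Spearman correlation of LNCaP and VCaP scores was 0.09. All points come from the same 2 libraries, and every site had to pass the score limit of both lists. Scores ran from 50.1 to 469 (median 73.3) in LNCaP and from 50.1 to 1326 (median 64.3) in VCaP. The upper score quartile of the LNCaP list held 322 of the sites, that of the VCaP list held 316, and 136 were in both. The lowest quartile of both lists held 31.

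**Figure D3:**
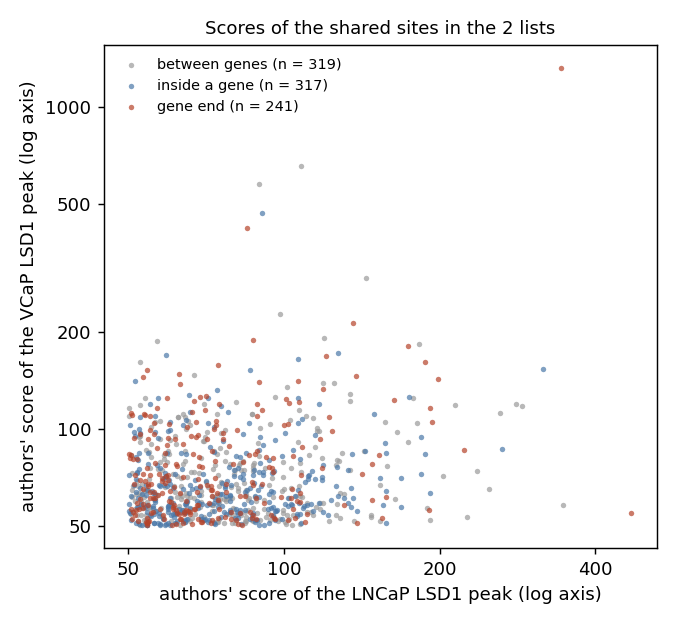
The authors' score of each of the 877 sites in the LNCaP list (x axis, log) and of its VCaP counterpart (y axis, log), coloured by position. Points fill the lower left without a diagonal, and 1 gene-end site, at ROCK1P1, stands apart at 343 and 1326.

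The 5 sites with the lowest sum of ranks in both lists lay in different settings. The first, on chromosome 18 at 107603 to 109923, reached into the low-coordinate end of ROCK1P1, a pseudogene of the kinase gene ROCK1, with scores of 343 and 1326. ROCK1P1 is a near-identical copy of part of ROCK1, so its read placement is uncertain. The second lay inside ANP32E, which encodes a histone chaperone that removes H2A.Z, on chromosome 1 at 150205955 to 150207074 (scores 317 and 154). It lay 1430 bases from an end of the interval, just past the 1 kb limit. The third was 18136 bases from any gene interval on chromosome 1 (33520649 to 33521862, scores 183 and 183). ZNF335 on chromosome 20 (44599809 to 44600884, scores 187 and 162) and the PSMD9 site completed the set.

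The rule required overlap, so closeness in place and a shared position class largely follow from it. The values below describe the pairs and are no measure of agreement between the lines. Centres were a median of 151.5 bases apart, and 868 of 877 sites had the same position class in both lists. The LNCaP peaks were 827 bases wide in the median (337 to 2321) and the VCaP peaks 978 (380 to 6492), with a median overlap of 673 bases. The VCaP peak was the wider in 569 cases (64.9%, 61.7 to 68.0%). At 3 sites the LNCaP peak met 2 VCaP peaks.

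Near the edge of the rule the classes meet. The 3 smallest overlaps were 17, 25 and 32 bases, on chromosomes 4, 1 and 18. The 3 nearest non-members lay 8, 12 and 12 bases from a VCaP LSD1 peak, on chromosomes 15, 5 and 11. Only 10 sites overlapped by under 100 bases, and 16 of the 10107 peaks of LNCaP LSD1 alone came within 100 bases of a VCaP peak. On the H3T6ph side, the closest member, on chromosome 3 at 11811533 to 11812524, lay 32 bases from an H3T6ph peak.

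Beyond direct overlap, H3T6ph was seldom close by, though within 2 kb it was more frequent than for LNCaP LSD1 alone. An H3T6ph peak lay within 10 kb of 51 sites, or 5.82% (4.45 to 7.57%), against 4.27% (3.90 to 4.69%) of peaks of LNCaP LSD1 alone. Those intervals overlap. At gene ends the share was 3.32% (1.69 to 6.41%) of 241 sites, inside genes 5.36% (3.37 to 8.42%) and between genes 8.15% (5.62 to 11.7%). For LNCaP LSD1 alone the order was the opposite, with 43 of 827 peaks at gene ends, 4.67% inside genes and 3.72% (3.22 to 4.30%) between them. Within 2 kb the share was 2.05% (1.30 to 3.22%) of all sites, against 0.712% (0.566 to 0.896%) for LNCaP LSD1 alone. The 2 kb intervals do not overlap. The median distance to the nearest H3T6ph peak was 159 kb, against 215 kb for LNCaP LSD1 alone.

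Chromosome 19 had the highest share of its LNCaP peaks among the sites. It held 65 of them, 23.4% (18.8 to 28.7%) of its 278 LNCaP LSD1 peaks, where the other chromosomes ran from 3.50% on X to 12.03% on 20. It carries 1439 gene intervals, second to the 1986 of chromosome 1. Of its 65 sites 39 were at a gene end, or 60% (47.9 to 71.0%), against 27.8% (22.01 to 34.5%) of the 194 peaks of LNCaP LSD1 alone there. On the other chromosomes together 202 of 812 sites were at a gene end, 24.9% (22.03 to 28.0%), against 7.80% (7.29 to 8.34%). VCaP had 537 LSD1 peaks on chromosome 19, against 278 in LNCaP. Counted over the VCaP list, 12.1% (9.61 to 15.1%) of those 537 met a site, below the 13.9% of chromosome 1 and the 14.0% of chromosome 22.

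**Figure D4:**
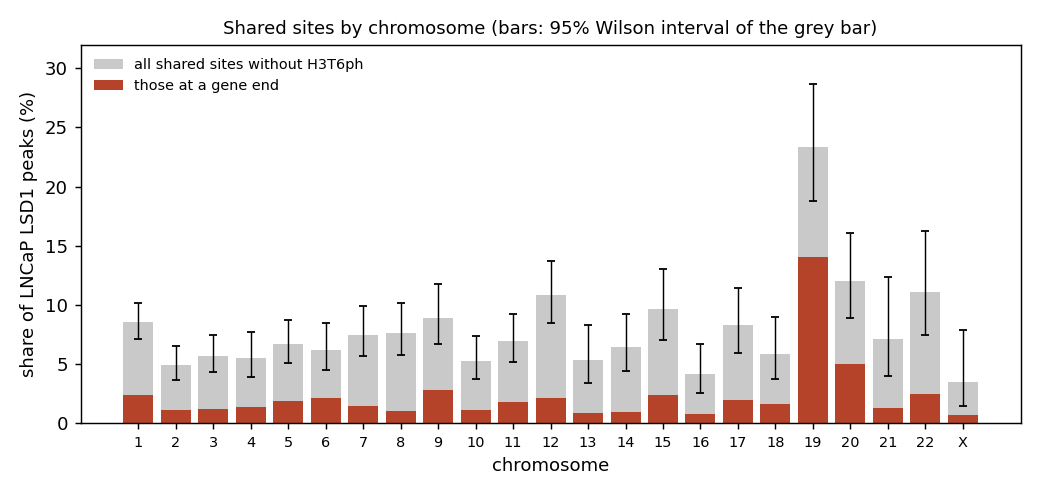
Share of the LNCaP LSD1 peaks of each chromosome (%) that are shared with VCaP without H3T6ph (grey, with 95% Wilson intervals), and the part of that share at a gene end (red). Chromosome 19 is at 23.4%, and every other chromosome is at 12.03% or below.

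Zinc finger genes at the starts were counted after the names had been seen. Genes named ZNF, ZFP, ZSCAN, ZKSCAN or ZBTB with a number made up 15 of the 171 protein-coding genes with a site at the start, 8.77% (5.39 to 14.0%). Among all 11884 protein-coding genes with a named start they were 3.71% (3.39 to 4.07%), and among the 478 with a peak of LNCaP LSD1 alone at the start 4.18% (2.72 to 6.37%). The interval of those 478 overlaps that of the 171. Chromosome 19, where such genes lie in clusters, held 11 of the 15. It also held 205 of the 441 such genes among the 11884, and 13 of the 20 with LNCaP LSD1 alone at the start. Many of these genes encode repressors that act through KAP1. All 15 were measured, from 2.26 FPKM for ZNF799 to 45.4 FPKM for ZNF24 in the control library. Their log2 fold changes after LSD1 siRNA ran from -0.23 (ZNF420) to 0.15 (ZBTB45), 6 above and 9 below 0. Similar members of this family can share reads, which makes single values uncertain.

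Most genes with a site at the start were measured in LNCaP, at levels near those of other measured genes. A gene was called measured at 1 FPKM or more in either RNA library. Of the 171 protein-coding genes 158 were measured, 92.4% (87.4 to 95.5%), against 63.2% of all 18376 protein-coding genes and 85.1% (81.7 to 88.1%) of the 478 with a peak of LNCaP LSD1 alone at the start. The median of the 158 was 12.8 FPKM in the control library and 12.7 FPKM after LSD1 siRNA. All 11621 measured protein-coding genes had medians of 13.2 and 12.9 FPKM. The start genes ranged up to RPS14, a small ribosomal subunit gene, at 1636 FPKM with control siRNA and 1567 with LSD1 siRNA. Next came TMBIM6, an endoplasmic reticulum membrane gene, at 426 and 466 FPKM, and ATP5MC2, a subunit gene of ATP synthase, at 325 and 351 FPKM. The unmeasured 13 included HPD, ZEB1, AANAT, NPAS4, NEUROD4 and KRT4. HPD and AANAT share their site with the measured genes PSMD9 and UBE2O.

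The 15 measured genes at the highest-scoring gene-end sites were next described, 1 gene a site. PWWP2A, which encodes a reader of H2A.Z chromatin, had the highest LNCaP score of all sites, 469, but only 54.7 in VCaP (chromosome 5, 159546278 to 159547312). It was at 6.20 FPKM with control siRNA and 7.01 with LSD1 siRNA. At EARS2 the values were 14.96 and 13.0 FPKM, at CENPF 3.94 and 3.94, and at ZNF335 9.11 and 9.56. These 4 genes lay within 1.5-fold, as did each of the other 11. Among all measured genes only 1.92% were past it higher and 2.38% lower. TMED9, a cargo receptor gene of the early secretory pathway, was at 106 and 120 FPKM (site scores 192 and 116). PSMD9 was at 17.6 and 15.8 FPKM, and UBE2O at 17.3 and 18.7. TDRKH encodes a tudor protein of the piRNA pathway and was at 8.77 and 8.34 FPKM. The log2 fold changes of the 15, on the log2(FPKM + 1) scale, ran from -0.26 for NLRX1, a mitochondrial innate immunity gene, to 0.35 for ROCK1P1. Lowest in this group were SYT11 (0.87 and 1.12 FPKM), ROCK1P1 (1.27 and 1.89 FPKM) and CCDC88A, which encodes an actin-binding protein (2.39 and 2.48 FPKM). ZEB1-AS1 was at 4.08 and 4.58 FPKM.

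Promoters of these start genes were compared with those of other measured genes for base content and 9 motifs. The outermost RefSeq promoter was found for all 158. A CpG ratio of 0.6 or more was reached by 86.7% (80.5 to 91.1%) of them, by 83.7% of the promoters of measured protein-coding genes (9607) and by 48.8% of all promoters (27305). It was also reached by 86.7% (83.1 to 89.7%) of the 407 measured protein-coding genes with a peak of LNCaP LSD1 alone at the start. The motifs were each searched in both orientations and separately, so that matches may overlap. GGGCGG was in 64.6% (56.8 to 71.6%) of the 158, in 70.4% of the 9607 and in 44.5% of all. CCGGAAG was in 18.99% (13.6 to 25.8%), against 20.2 and 10.6%. TGCGCA was in 15.2, 14.2 and 8.45% and ATGGCGG in 12.03, 10.8 and 5.68%, in the same order. The CCAAT box, CCAAT, was in 32.9, 37.2 and 35.7%, and the E-box CACGTG in 8.86, 10.2 and 7.41%. AGAACA, a single repeat of the steroid hormone response element, was in 13.3% (8.86 to 19.5%), 8.75% and 14.8%. AP-1 sites, TGANTCA, were in 1.27% (0.348 to 4.50%), 4.11% and 7.72%, and the forkhead site TGTTTAC in 0.633% (0.112 to 3.50%), 2.31% and 3.44%. These last shares rest on 2 promoters and 1 promoter, and their intervals hold the shares of measured genes. The interval for AGAACA begins just above the 8.75% of measured genes and holds the share of all promoters. That interval also overlaps the one of the 407 genes with LNCaP LSD1 alone at the start, 8.35% (6.04 to 11.4%). These matches describe windows of 300 bases and not binding.

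After LSD1 siRNA, the 275 measured genes with a site at an end had a median log2 fold change of -0.03, 122 above and 153 below 0, against -0.01 for all 12750 measured genes. For the 158 protein-coding genes with a site at the start the median was -0.03, with the middle 50% between -0.17 and 0.09. All fold limits here are on the log2(FPKM + 1) scale, on which a low gene needs a larger ratio of FPKM to pass. Past 1.5-fold, 1 of the 158 was higher and 1 lower, 0.633% in each direction, against a background of 1.04% higher and 1.17% lower among all measured protein-coding genes. The higher one was TPM4, a tropomyosin gene, at 44.7 and 71.8 FPKM. The lower was CDCA7, which encodes a partner of the chromatin remodeller HELLS, at 3.50 and 1.73 FPKM. On that scale none of the 158 passed 2-fold (CDCA7 was at -0.72), against 0.112% higher and 0.129% lower in the background.

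**Figure D5:**
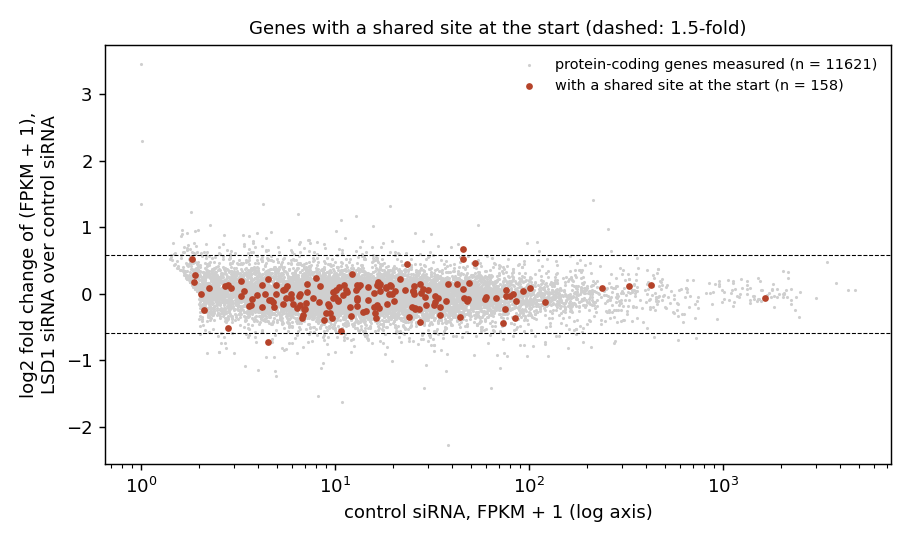
Log2 fold change of FPKM + 1, LSD1 siRNA over control siRNA (y axis), by control FPKM + 1 (x axis, log) for 11621 measured protein-coding genes (grey) and the 158 with a shared site at the start (red), with 1.5-fold dashed. All but 2 of the red points, TPM4 and CDCA7, lie between the dashed lines.

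Within 20 kb of a site lay 818 measured protein-coding genes. Past 1.5-fold, 11 of them were higher (1.34%, 0.753 to 2.39%) and 12 lower (1.47%, 0.841 to 2.55%), and both intervals hold the background shares. Over all 872 measured genes within 20 kb, non-coding ones included, 17 were higher and 20 lower, or 1.95 and 2.29%, against a background of 1.92 and 2.38%. Past 2-fold, 4 of the 872 were higher and 8 lower, against 0.847 and 1.13%. Of the genes past 2-fold on this scale CLU, DCTPP1 and FYTTD1 are protein-coding, and the others are short RNAs, whose FPKM is unreliable. The 10 largest differences among protein-coding genes that reached 5 FPKM in at least 1 library were led by DCTPP1, a nucleotide pyrophosphatase gene, at 62.9 and 22.9 FPKM (log2 -1.42), 7.19 kb from a site on chromosome 16. CLU, which encodes the chaperone clusterin, was at 18.2 and 47.0 FPKM (log2 1.32), 12.6 kb from a site on chromosome 8. FYTTD1, an mRNA export gene, was at 36.3 and 15.7 FPKM, 11.7 kb away. TOMM5, a subunit gene of the mitochondrial import channel, was at 67.7 and 35.4 FPKM, and E2F5, a cell cycle repressor gene, at 8.16 and 3.90 (log2 -0.90). The glycosyltransferase gene GALNT7 was at 31.5 and 16.9 FPKM and RBBP9 at 17.5 and 9.65. DIO1, a thyroid hormone deiodinase gene, was at 2.60 and 5.56 FPKM (log2 0.87), the amino acid transporter gene SLC7A8 at 18.8 and 33.3, and PCP2 at 7.06 and 12.9. Only SLC7A8 of these 10 held a site inside its interval, and the other 9 lay 4.28 to 18.7 kb from the nearest site. The sites near DIO1, GALNT7, RBBP9 and PCP2 were at an end of another gene interval.

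Among the 818 genes, 13 had at least 1 accession marked as significant in the authors' deposited table (1.59%, 0.931 to 2.70%), against 0.99% of all measured protein-coding genes. The same 13 were the ones among all 872 genes, where the background was 0.918%. Of these, TDRKH and ZNF382 had a site at an end. In the authors' deposited table their q was 0.0374 and 0.00541, for 1 accession each, while the sums over accessions lay at log2 fold changes of -0.07 and 0.13. The others were DCTPP1, CLU, TOMM5, GALNT7, RBBP9, ATP7B, CARD8, FOXP1, HFE, NF2 and SEMA7A. Of the largest differences named above, those of FYTTD1, E2F5, DIO1, SLC7A8 and PCP2 were not marked as significant there. HFE, the haemochromatosis gene, lay 8.01 kb from a site of high VCaP score on chromosome 6 (26103479 to 26104748, scores 84.8 and 422), and was at 2.01 and 2.14 FPKM. That site was at an end of another gene interval.

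The shares of 10 gene lists chosen for this tissue lay on both sides of that of all genes, with intervals that hold it. Of all 12750 measured genes 6.84% had a site within 20 kb of their interval, and 2.16% had one at an end. Androgen-induced genes had 2 of 65 measured members within 20 kb, 3.08% (0.848 to 10.5%), and none at an end. These were STEAP2, a metalloreductase gene, at 281 FPKM with control siRNA and 238 with LSD1 siRNA, and RAB3B, a secretory vesicle gene, at 22.97 and 18.9. The site near STEAP2 lay 6.90 kb from it, at the end of another gene interval, and that of RAB3B lay inside its interval. Nuclear receptor cofactors had 2 of 21, among them the coactivator gene NCOA2 (15.1 and 13.4 FPKM), with the site inside the gene. The ETS factor list had 2 of 13, ETV6 (5.51 and 5.91 FPKM) and EHF (170.0 and 127.5).

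Of the LSD1 complexes 3 of 26 measured genes, 11.5% (4.003 to 29.0%), had a site, in each case inside the interval. RCOR1, the CoREST scaffold that holds LSD1 on nucleosomes, was at 17.0 and 16.4 FPKM, with its site on chromosome 14 (103183739 to 103184278). The deacetylase gene HDAC1 was at 93.0 and 131 FPKM, and the corepressor gene CTBP2 at 58.4 and 54.4. Immediate early genes had 3 of 21, all outside their intervals. EGR1 was at 1.90 and 3.54 FPKM, IER2 at 20.5 and 31.7 and BTG2 at 45.7 and 54.3, and the first 2 passed 1.5-fold, as 1.92% of all measured genes did upward. The median log2 fold change of all 21 measured immediate early genes, near a site or not, was 0.40. Targets of p53 had 3 of 24, which were TP53INP1 (106 and 67.9 FPKM), RRM2B (41.4 and 31.1, with the site at an end) and BTG2. Of these TP53INP1 was past 1.5-fold, lower, as were 2.38% of all measured genes.

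Cytosolic ribosomal protein genes had 6 of 69 measured members near a site, 8.70% (4.05 to 17.7%), and 3 of these, RPS14, RPL12 and RPL31, had it at an end. RPL12 was at 1321 and 1319 FPKM and RPL31 at 1583 and 1651. None of the 6 passed 1.5-fold, against 1.92% of all measured genes upward and 2.38% downward. DNA replication genes had 1 of 45, RPA3 (10.1 and 11.5 FPKM), with a site of LNCaP score 192 inside its interval. The REST target list had 1 of 9, SYT11. Genes of transcription and splicing had none of 29, which allows a share of up to 11.7%. The Wilson interval of each list holds the 6.84% of all measured genes.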

How the data were processed

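The authors deposited 1 peak list for each ChIP sample, with a score per peak whose scale the files do not state. The submitters' processing notes name Bowtie2 2.0.0, MACS2, TopHat2 2.0.4, Cuffdiff 2.0.1 and hg19. Not given in the sources used here: the control track, the handling of duplicate reads and the annotation version. Expression was deposited by the authors as FPKM per RefSeq accession, with a p-value and q-value for each, per the file headers.

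Peaks were compared with Python 3.11.15, pandas 2.3.3 and scipy 1.17.1, with at least 1 shared base. Gene intervals (19834) are those of the RNA table, without strand; overlapping transcripts share 1 interval, so starts inside a merged interval are not seen, and 12.4% of intervals hold 2 or more genes. Accessions were matched to RefSeq symbols (GRCh38.p14) in 38930 of 40253 cases and summed per gene; 42 genes with a failed accession were left out, and genes needed an interval on chromosomes 1 to 22 or X. Fold changes, computed as a difference in log2(FPKM + 1), understate the change of low genes. Strand came from the RefSeq promoter table, which named the start of 12422 intervals. The overlap, position and fold steps were tested on simulated data.

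The sites, the 10 gene lists, the tests and the rule for named genes were chosen with earlier results of these data known. That rule took the 5 sites lowest in summed rank, the 3 on each side of the overlap limit, 15 genes at the highest-scoring gene-end sites, the 10 largest changes within 20 kb up to 4 members a list and up to 6 promoters, whose 3 conditions were added after the data were seen. Divergent pairs, zinc finger genes, the most expressed and the unmeasured start genes, TPM4, CDCA7 and the genes called in the authors' table were named after their values were seen. Some genes that fall under the rule are not reported here.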

Additional observations from a re-analysis of the deposited data

How the results depend on the processing

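The share of sites at a gene end moved from 27.5% to 31.0% within 2.5 kb of an end, where peaks of LNCaP LSD1 alone were at 11.9%. It was 24.9% with intervals of measured genes only and, in a setting chosen after seeing the data, 24.9% without chromosome 19, against 6.48 and 7.80% for LNCaP LSD1 alone. With peaks at or above the median score of both LSD1 lists, 324 sites were left of 877, 27.5% of them at a gene end. H3T6ph lay within 10 kb of 8.33% of those 324; for all sites the share was 2.05% within 2 kb and 21.0% within 50 kb. Without a filter on FPKM, the median control value of genes with a site at an end was 9.06 FPKM in place of 12.1. Genes past 1.5-fold numbered 37 within 20 kb, 20 within 5 kb and 57 within 50 kb, or 4.24, 3.24 and 4.30% of the genes there, against 4.31% of all measured genes. With a pseudocount of 0.1 they were 53, or 6.08% against 6.20%. No paired analysis was possible because each group holds 1 sample, and for the same reason no replicate could be left out.

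Absence from a list means only that no peak passed the authors' threshold there, and ChIP depth, which bears on that threshold, is unknown.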
